A study of Mus musculus with 12 samples.

Results

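The genes described here are 10 secreted signals of inflammation and cell recruitment, the chemokines Ccl2, Ccl5, Ccl7, Cxcl1, Cxcl5, Cxcl10, Cxcl12 and Cx3cl1 and the cytokines Csf1 and Il6, out of 17995 genes in the expression table. They were chosen from results of these same 12 libraries, namely their RPKM levels and their differences between shM5 and shNC, so their values are given as a description, without p-values of their own. All 10 had a row in the table. RPKM is the number of reads mapped to a gene, scaled by transcript length and by the mapped reads of the library.

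Poly(A) RNA was sequenced from 2 mouse lines, C18-4, described by the submitters as spermatogonial stem cells, and TM4, described as Sertoli cells. Both lines carried a lentiviral short hairpin construct in stably transfected cells, either shM5, a mix of 3 hairpins against the muscarinic acetylcholine receptor gene Chrm5, or the control hairpin shNC. Each of the 4 groups had 3 libraries. It is not stated whether the 3 came from separate cultures, so the spread between them may be technical. Viral delivery is shared by all groups, and each cell type is represented by 1 line, so a line and a cell type cannot be told apart. Chrm5 was at or near 0 in all 12 libraries, with a highest value of 0.01 RPKM, and could not serve as a check of the labels. In C18-4 cells the germ cell markers Gfra1, Ret, Zbtb16, Ddx4, Dazl and Pou5f1 stayed at or below 0.34 RPKM, while Wt1, a Sertoli cell marker, was at 53.9 to 72.3 RPKM. In TM4 cells Wt1 did not pass 0.15 RPKM and Sox9 reached 1.74 RPKM, so neither line showed the full marker set of its name. Of the 10 Sertoli markers with values, 4 had a mean below 0.5 RPKM in each group of both lines. Of the 9 spermatogonial markers with values, 7 did. The leukocyte markers Adgre1 and Cd3e were at 0 in every TM4 library, and the summed level of 9 leukocyte markers was 16.8 to 20.3 RPKM in TM4 shNC and 17.2 to 20.0 RPKM in TM4 shM5, mostly from Cd14. In C18-4 cells that sum was 3.07 to 5.29 RPKM in shNC and 2.85 to 3.44 RPKM in shM5, and Adgre1 and Cd3e were at 0 there too. Some libraries stood apart from their group. Over all tested genes, TM4 shNC replicate 3 differed from the 3 TM4 shM5 libraries by a root mean square of 0.202 to 0.257 on the log2 scale, but from the other two TM4 shNC libraries by 0.640 to 0.642. In C18-4 cells, shNC replicate 3 was 0.418 to 0.438 and shM5 replicate 3 was 0.376 to 0.388 from the other two libraries of its group, which were 0.200 and 0.201 apart, while the 2 replicates 3 were 0.322 from each other.

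Chemokines are small secreted proteins that bind G protein-coupled receptors and direct the migration of leukocytes and other cells. Their genes are commonly switched on by the transcription factor NF-κB after signals such as TNF or IL-1, and several also respond to interferons. In the testis, Sertoli cells, peritubular cells and interstitial macrophages are known sources of such signals, and Cxcl12 and Csf1 have been linked to the support of spermatogonial stem cells.

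The chemokine families are named for the spacing of the first cysteines of the mature protein, and this spacing can be read in the coding sequence. It is shown for all 8 chemokines because the results are ordered by these families. Each stretch runs 5′ to 3′ on the coding strand, with the codons of the first 2 cysteines in capitals, and lies in 1 exon of the GENCODE model of the gene on build GRCm38.
Ccl2, chr11:82036497-82036514, plus strand: ccactcaccTGCTGCtac
Ccl7, chr11:82046529-82046546, plus strand: gcatccacaTGCTGCtat
Ccl5, chr11:83529239-83529256, minus strand: accactcccTGCTGCttt
Cxcl1, chr5:90891487-90891507, plus strand: gagctgcgcTGTcagTGCctg
Cxcl5, chr5:90759718-90759738, plus strand: gagctgcgtTGTgttTGCtta
Cxcl10, chr5:92348178-92348198, minus strand: acggtccgcTGCaacTGCatc
Cxcl12, chr6:117171499-117171519, plus strand: agctaccgaTGCcccTGCcgg
Cx3cl1, chr8:94778042-94778068, plus strand: atgacgaaaTGCgaaatcatgTGCgac
The codons were adjacent in the CC genes, 3 bases apart in the CXC genes and 9 bases apart in Cx3cl1. Of the 4 CXC genes, Cxcl1 and Cxcl5 had codons for Glu-Leu-Arg directly before the first cysteine, the motif of chemokines that attract neutrophils, and Cxcl10 and Cxcl12 did not. The genes Ccl2 (chr11:82035571-82037453) and Ccl7 (chr11:82045712-82047525) are neighbours on the plus strand, 8259 bases apart. Cxcl1 (chr5:90891241-90893115) and Cxcl5 (chr5:90759360-90761624) lie in another cluster on chromosome 5, while Ccl5 (chr11:83525778-83530518), Cxcl10 (chr5:92346638-92348889), Cxcl12 (chr6:117168535-117181367), Cx3cl1 (chr8:94772009-94782427), Csf1 (chr3:107741048-107760469) and Il6 (chr5:30013114-30019981) lie elsewhere.

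Of the 10 genes, 8 were higher in level in TM4 than in C18-4 cells, and the exceptions were Cx3cl1 and Csf1. Averaged over 6 libraries a line, Ccl2, the main attractant of monocytes, was at 110 RPKM in C18-4 and 503 RPKM in TM4 cells, the highest mean of the 10 in both lines. Ccl7, which binds the same receptor Ccr2 and others, averaged 14.3 RPKM in C18-4 and 363 RPKM in TM4 cells, a ratio of 25.4. Cxcl1, a ligand of the neutrophil receptor Cxcr2, averaged 19.2 and 399 RPKM, a ratio of 20.7. These 3 genes together with Ccl5 and Cxcl10 made up the 5 highest means of the set in TM4 cells. Ccl5, which attracts T cells and monocytes, averaged 26.1 RPKM in C18-4 and 205 RPKM in TM4 cells, and Cxcl10, an interferon-responsive attractant of T cells, averaged 25.4 and 181 RPKM. The remaining genes higher in TM4 cells were barely present in C18-4 cells. Il6, the interleukin that signals through Il6ra and Il6st, averaged 0.425 RPKM in C18-4 and 59.3 RPKM in TM4 cells. Cxcl5, the other Cxcr2 ligand, averaged 0.593 and 27.1 RPKM. Cxcl12, the ligand of Cxcr4, was listed at 0 in 4 of 6 C18-4 libraries, with a highest value of 0.03 RPKM, against 12.4 to 16.8 RPKM in TM4 cells. In the other direction, Cx3cl1, a membrane-anchored chemokine, averaged 14.0 RPKM in C18-4 and 4.02 RPKM in TM4 cells, and Csf1, the growth factor of macrophages, averaged 102 and 66.2 RPKM. Csf1 was the one gene whose ranges overlapped between the lines, at 91.9 to 126 RPKM in C18-4 and 48.3 to 98.3 RPKM in TM4 cells. All 10 passed the adjusted p threshold of 0.05 in limma for the line difference, as did 73.0% of the 11773 genes tested, and since the genes were chosen on these values nothing is read from that count. When each library was rescaled by its median ratio, the median line difference over all genes moved from 0.14 to 0.01 on the log2 scale (C18-4 minus TM4), the genes called went from 5163 higher and 3433 lower in C18-4 cells to 4336 higher and 4248 lower, and the direction of all 10 genes stayed the same.

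**Figure D1:**
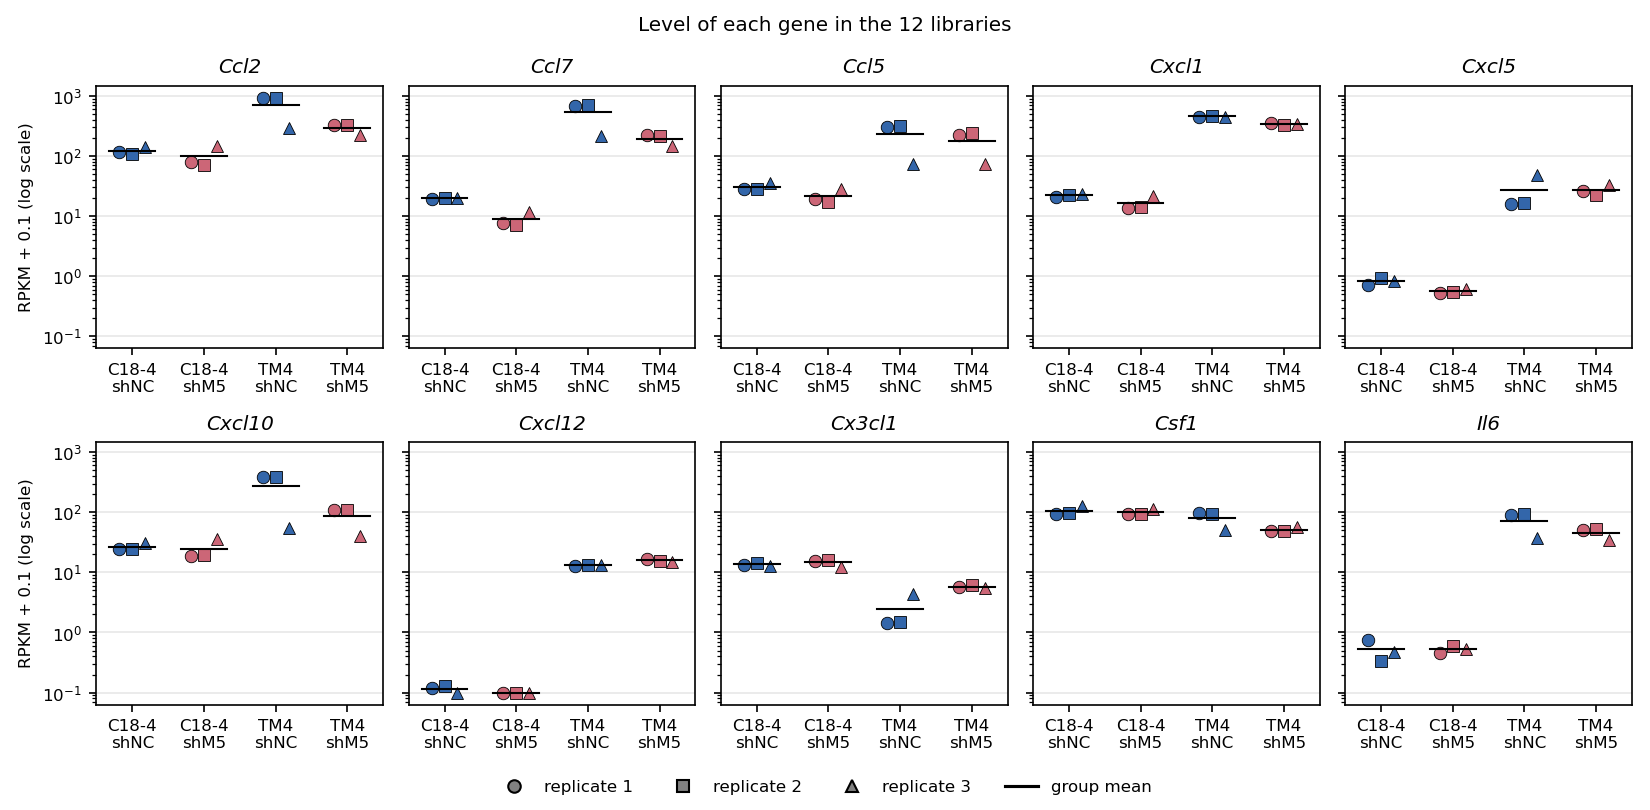
Level of the 10 genes in the 12 libraries, as RPKM + 0.1 on a log axis, with 1 panel a gene, 1 symbol shape per replicate number and a bar at each group mean (n = 3). Ccl2 reaches 926 RPKM in TM4 shNC replicate 2, and Cxcl12 lies at the bottom of its panel in all C18-4 libraries, where it does not pass 0.03 RPKM.

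In C18-4 cells the shM5 libraries had lower Ccl7 than the controls, and most of the other chemokines had smaller differences in the same direction. Ccl7 was at 19.4, 20.0 and 20.2 RPKM in shNC replicates 1, 2 and 3 and at 7.44, 7.05 and 11.6 RPKM in shM5 replicates 1, 2 and 3. The groups did not overlap, and the shM5 mean of 8.69 ± 2.51 RPKM was 0.438 times the shNC mean of 19.9 ± 0.441 RPKM (SD, n = 3). On the log2(RPKM + 0.1) scale, shM5 minus shNC was -1.22 ± 0.18 (SE). In RNA from whole cultures, fewer cells with the transcript and less transcript per cell cannot be told apart. Its neighbour Ccl2 was at 115, 108 and 140 RPKM in shNC and at 80.4, 71.6 and 147 RPKM in shM5. The first 2 shM5 libraries were below all controls and the third was above them, so the groups overlapped, and the log2 difference was -0.34 ± 0.26. It was -0.66 without shM5 replicate 3 and -0.23 or -0.14 without shM5 replicate 1 or 2. Ccl5 was at 28.5, 28.1 and 35.4 RPKM in shNC and at 19.2, 17.3 and 28.2 RPKM in shM5, with a log2 difference of -0.53 ± 0.19. Only shM5 replicate 3 reached into the shNC range, where it lay just above the lowest control.

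Among the CXC chemokines of C18-4 cells, Cxcl1 was at 20.8, 22.2 and 23.3 RPKM in shNC and at 13.4, 13.9 and 21.9 RPKM in shM5. Here again shM5 replicates 1 and 2 were below every control and replicate 3 lay among them, and the log2 difference was -0.47 ± 0.19. Cxcl5 was near the detection limit, at 0.62, 0.83 and 0.72 RPKM in shNC and 0.43, 0.44 and 0.52 RPKM in shM5. All shM5 values of Cxcl5 were below all shNC values, with a log2 difference of -0.54 ± 0.22, which shrank to -0.23 when 1 rather than 0.1 was added before the logarithm. Cxcl10 was at 24.0, 24.4 and 30.8 RPKM in shNC and at 19.0, 19.0 and 35.4 RPKM in shM5, so that shM5 held both the lowest values and the highest one, and the log2 difference was -0.17 ± 0.25. For Cxcl10 it was -0.46 without shM5 replicate 3, -0.05 without shNC replicate 3 and -0.02 without shM5 replicate 1 or 2. Cx3cl1 ran from 12.9 to 14.1 RPKM in shNC and from 12.3 to 15.7 RPKM in shM5, and Csf1 from 92.1 to 126 and from 91.9 to 112 RPKM. The groups of both genes overlapped, with log2 differences of 0.10 ± 0.12 and -0.07 ± 0.14. Leaving out single libraries moved these small values over 0.04 to 0.22 for Cx3cl1 and -0.16 to 0.07 for Csf1. Cxcl12 and Il6 had a mean below 0.5 RPKM in C18-4 cells and were not tested, and Il6 was at 0.24 to 0.66 RPKM in shNC and 0.36 to 0.49 RPKM in shM5.

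Of the 8 genes tested in C18-4 cells, 7 had a lower mean log2 level in shM5, and 2, Ccl7 and Cxcl5, had shM5 values all below shNC, against 9.55% of the 11611 genes tested. None had shM5 values all above shNC, against 9.30% of the genes tested. In the unblocked fit across all genes 1 of the 8, Ccl7, passed the threshold, as did 0.586% of all genes. That call of Ccl7 was lost when shNC replicate 1, shNC replicate 2, shM5 replicate 1 or shM5 replicate 2 was left out, fits in which 0 genes of the table passed. It was also lost when the stricter threshold of the study was applied to this limma fit, and with no filter on low levels beyond a mean above 0. In these settings 0 and 4 genes passed. The replicate numbers were taken to pair the C18-4 libraries, mainly because the replicates 3 of both groups deviated together. With the number as a block Ccl7, Ccl5 and Cxcl1 passed, beside 11.9% of all genes. Without replicate 3 of both groups 6 of the 8 passed, Ccl2, Ccl5, Ccl7, Cxcl1 and Cxcl10 lower and Cx3cl1 higher in shM5, beside 26.2% of all genes. As the genes were chosen on this contrast, these counts describe them and are not read as a result. The difference between shM5 and shNC of replicate 3 was the smallest of the 3 numbered pairs, or of the other sign, for 7 of the 8 genes, against 51.8% of all genes tested. The summed level of the 10 Sertoli markers with values also differed between the C18-4 groups, at 76.4 to 78.0 RPKM in shNC and 81.5 to 87.6 RPKM in shM5. Most of that sum was Wt1. The 9 spermatogonial markers summed to 3.98 to 5.68 and 4.40 to 6.53 RPKM and the 5 Leydig markers to 0.61 to 0.87 and 0.84 to 1.16 RPKM. The part of all these markers in these values was not tested.

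**Figure D2:**
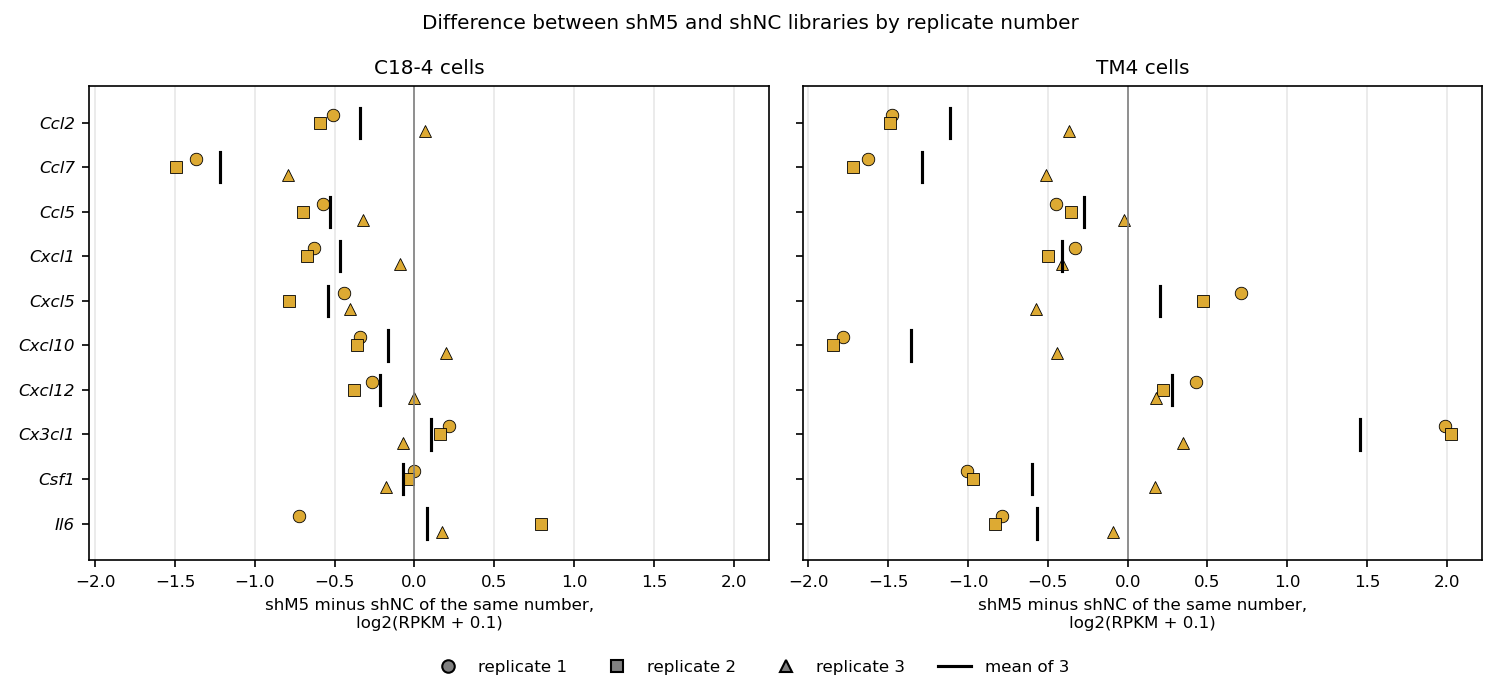
Difference between the shM5 and the shNC library of the same number on the log2(RPKM + 0.1) scale, for each gene in C18-4 (left) and TM4 cells (right), with a bar at the mean of the 3. In C18-4 cells Ccl7 is at -1.37, -1.49 and -0.80, and in TM4 cells replicate 3 lies nearer 0 than replicates 1 and 2 for Ccl2, Ccl7, Ccl5, Cxcl10, Cxcl12, Cx3cl1, Csf1 and Il6. Deviations of same-numbered TM4 libraries had an r of 0.0729, 0.0489 and 0.127 across genes, so the numbers were not taken as pairs there. For 84.9% of all genes tested in TM4 cells, shNC replicate 3 lay nearer the shM5 mean than the mean of shNC replicates 1 and 2.

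In TM4 cells the picture depended on 1 control library. Ccl7 was at 679, 702 and 212 RPKM in shNC and at 220, 213 and 149 RPKM in shM5. Replicates 1 and 2 of shNC were about equally high, and shNC replicate 3 lay among the shM5 libraries. Ccl2 showed the same layout, at 913, 926 and 293 RPKM in shNC and at 328, 329 and 227 RPKM in shM5. The shM5 mean was 0.365 times the shNC mean for Ccl7 and 0.415 times for Ccl2, and the log2 differences were -1.29 ± 0.47 and -1.11 ± 0.46. Without shNC replicate 3 they were -1.85 and -1.66. Across the 6 TM4 libraries the log2 levels of these 2 neighbouring genes had a Pearson r of 0.998, and across the 6 C18-4 libraries one of 0.717, values that rest on shared libraries and, in TM4 cells, on the split of shNC replicates 1 and 2 from the rest.

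Cxcl10 and Ccl5 in TM4 cells were low in replicate 3 of both groups. Cxcl10 was at 382, 391 and 54.4 RPKM in shNC and at 111, 109 and 40.0 RPKM in shM5, with a log2 difference of -1.36 ± 0.84. Leaving out shNC replicate 3 moved that difference to -2.30, and leaving out shNC replicate 1, shNC replicate 2 or shM5 replicate 3 moved it to -0.89, -0.88 and -0.87. The shNC replicate 3 value of Cxcl10 was below 2 of the 3 shM5 values. Ccl5 was at 306, 311 and 73.7 RPKM in shNC and at 224, 243 and 72.5 RPKM in shM5, with a log2 difference of -0.28 ± 0.70. For Ccl5 the gap between replicate 3 and the others in each group was wider than the gap between the groups, and its difference turned positive when shNC replicate 1, shNC replicate 2 or shM5 replicate 3 was left out, to 0.06, 0.07 and 0.29. It was -0.96 without shNC replicate 3 and -0.53 or -0.59 without shM5 replicate 1 or 2.

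Cxcl1 and Cxcl12 were the TM4 genes in which shNC replicate 3 stayed with its own group. Cxcl1 was at 446, 466 and 454 RPKM in shNC and at 355, 330 and 342 RPKM in shM5. All shM5 values were below all controls, the means were 455 ± 10.2 and 342 ± 12.1 RPKM (SD, n = 3), and the log2 difference of -0.41 ± 0.06 was -0.41 without shNC replicate 3 as well. Cxcl12 was at 12.4, 13.4 and 13.0 RPKM in shNC and at 16.8, 15.6 and 14.7 RPKM in shM5, with all shM5 values higher and a log2 difference of 0.28 ± 0.09. The last gene whose groups did not overlap was Cx3cl1, at 1.36, 1.41 and 4.22 RPKM in shNC and at 5.70, 6.05 and 5.39 RPKM in shM5. In its case shNC replicate 3 lay between the other two controls and shM5, nearer shM5, and the log2 difference of 1.45 ± 0.42 was 1.97 without that library.

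Cxcl5, Csf1 and Il6 made up the rest of the TM4 data. Cxcl5 was at 16.1, 16.2 and 48.9 RPKM in shNC and at 26.3, 22.6 and 32.8 RPKM in shM5, so that shNC held the lowest 2 values and the highest one. Its log2 difference of 0.20 ± 0.44 was -0.07 or -0.06 when shNC replicate 1 or 2 was left out, 0.73 without shNC replicate 3, and 0.33 or 0.06 without shM5 replicate 2 or 3. Csf1 was at 98.3, 94.5 and 50.3 RPKM in shNC and at 49.0, 48.3 and 56.7 RPKM in shM5, with a log2 difference of -0.60 ± 0.26, which was -0.91 without shNC replicate 3. Il6 was at 88.6, 92.9 and 36.6 RPKM in shNC and at 51.4, 52.1 and 34.3 RPKM in shM5, with a log2 difference of -0.57 ± 0.38. The Il6 difference was -1.01 without shNC replicate 3 and -0.37, -0.34 and -0.37 without shNC replicate 1, shNC replicate 2 or shM5 replicate 3. In both genes shNC replicate 3 lay within the shM5 range and the other two controls lay above it.

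In TM4 cells 1 of the 10 genes, Cxcl1, had shM5 values all below shNC, against 11.1% of the 11016 genes tested, and 2, Cx3cl1 and Cxcl12, had them all above, against 15.7%. In the fit across all genes 0 of the 10 passed the threshold, as did 0% of all genes, although 2866 genes had an unadjusted p under 0.05. Without shNC replicate 3, 9 of the 10 passed, all but Ccl5, beside 67.4% of all genes, so a call in that fit separates these genes little from the rest of the table. Set against the mean of shNC replicates 1 and 2, shNC replicate 3 lay nearer the shM5 mean for 8 of the 10 genes, and so it did for 84.9% of all genes tested. In that library Cxcl10 was at 0.141 times the mean of shNC replicates 1 and 2, Ccl5 at 0.239 times, Ccl7 at 0.307 times, Ccl2 at 0.318 times, Il6 at 0.403 times and Csf1 at 0.522 times, while Cxcl5 and Cx3cl1 were at 3.03 and 3.05 times. The summed level of the 9 spermatogonial markers with values moved too, at 9.72 to 16.2 RPKM in TM4 shNC and 16.1 to 17.3 RPKM in TM4 shM5. That shift came mainly through genes other than the defining germ cell markers. The 10 Sertoli markers summed to 37.4 to 76.8 and 30.6 to 35.2 RPKM, mainly from genes other than Wt1 and Sox9. The 5 Leydig markers summed to 0.70 to 1.17 and 1.07 to 1.58 RPKM. The part of all these markers in these results was not tested.

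**Figure D3:**
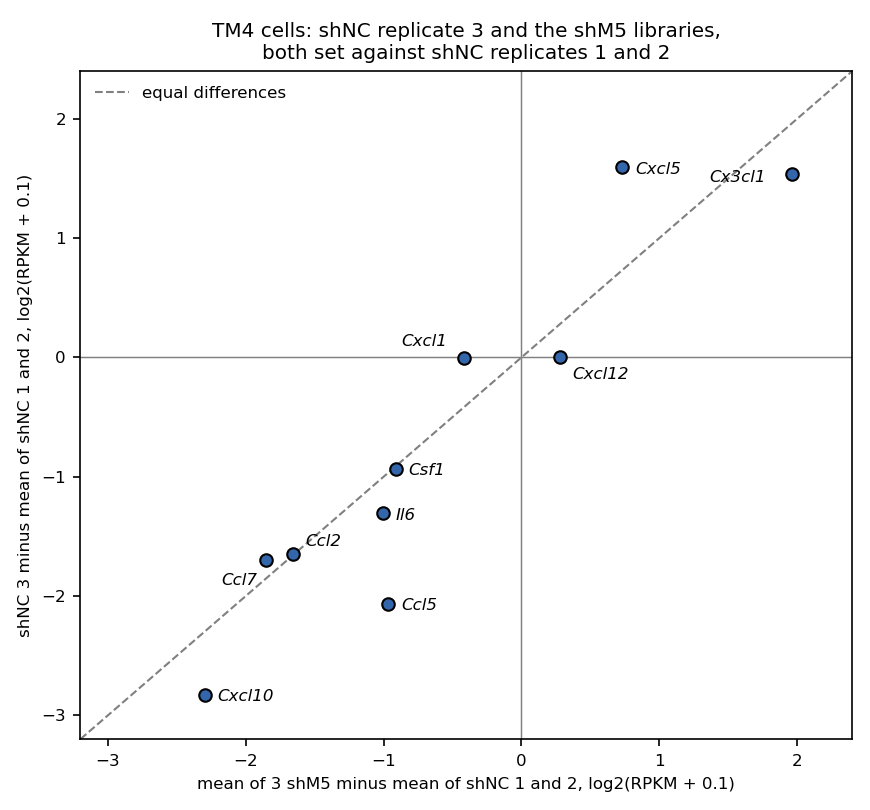
For each gene in TM4 cells, the difference of shNC replicate 3 from the mean of shNC replicates 1 and 2 (vertical) against that of the mean of the 3 shM5 libraries from the same 2 controls (horizontal), both on the log2(RPKM + 0.1) scale, so both axes share those controls. Ccl2, Ccl7 and Csf1 lie close to the dashed line of equal differences, and Cxcl1 at -0.41 and Cxcl12 at 0.28 on the horizontal axis lie at -0.01 and 0.01 on the vertical one.

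**Figure D4:**
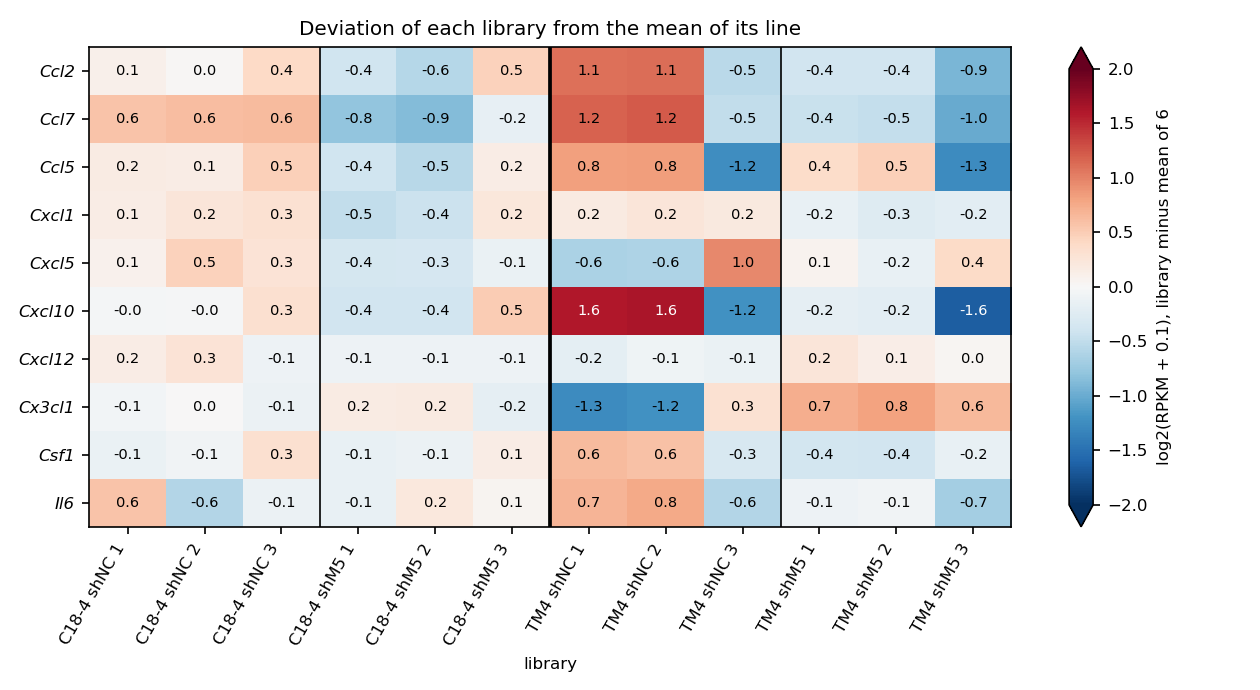
Level of each gene in each library minus its mean over the 6 libraries of the same line, on the log2(RPKM + 0.1) scale, with blue below and red above that mean and colours ending at 2 in both directions. In TM4 cells shNC replicates 1 and 2 stand out, at about 1.6 for Cxcl10 and about -1.3 for Cx3cl1. Replicate 3 of TM4 shNC and of TM4 shM5 also lies far off, at -1.21 and -1.65 for Cxcl10 and -1.24 and -1.26 for Ccl5.

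The shM5 difference itself was compared between the lines. Ccl7 was -1.22 in C18-4 and -1.29 in TM4 cells on the log2 scale, Cxcl1 was -0.47 and -0.41, and the difference between the lines, C18-4 minus TM4, was 0.07 ± 0.54 for Ccl7 and -0.05 ± 0.21 for Cxcl1 (SE). The widest gaps in the set were those of Cx3cl1 at -1.35 ± 0.46 and Cxcl10 at 1.19 ± 0.94. None of the 10 genes passed for a difference between the lines, beside 0.102% of all genes, and with SE of this size a difference cannot be set aside. Without TM4 shNC replicate 3, 5 of the 10 passed, Ccl2, Cxcl5, Cxcl10, Cx3cl1 and Csf1, beside 38.0% of all genes. In that fit the difference between the lines was 0.63 ± 0.28 for Ccl7 and -0.05 ± 0.23 for Cxcl1, and neither passed. Without replicate 3 of every group, the difference between the lines was 0.24 ± 0.06 for Ccl7 and -0.24 ± 0.07 for Cxcl1.

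Since several of the genes varied together across the TM4 libraries, their promoters were read for the letters of 3 motifs. RefSeq promoters on build GRCm38.p6 were at hand for 6 of the 10, Cxcl1, Cxcl10, Cxcl12, Cx3cl1, Csf1 and Il6. The motif of NF-κB was searched as GGGANNTTC, the interferon-stimulated response element as GAAANNGAA and the AP-1 site as TGANTCA, on both strands and over 300 bases, from 250 before the transcription start. The NF-κB letters occurred in 4 of the 6 promoters, those of Cxcl1, Cxcl10, Csf1 and Il6, and in 3.94% of the 32851 promoters in the table. These 4 are shown up to the start, 5′ to 3′ on the strand of the gene, with the NF-κB letters in capitals.
Cxcl1, chr5:90890995-90891244, plus strand: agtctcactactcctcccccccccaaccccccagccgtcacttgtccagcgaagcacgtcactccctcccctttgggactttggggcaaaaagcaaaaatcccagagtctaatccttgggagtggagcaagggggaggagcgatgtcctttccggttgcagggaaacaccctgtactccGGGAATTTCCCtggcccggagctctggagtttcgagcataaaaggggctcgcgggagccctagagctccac
Cxcl10, chr5:92348890-92349139, minus strand: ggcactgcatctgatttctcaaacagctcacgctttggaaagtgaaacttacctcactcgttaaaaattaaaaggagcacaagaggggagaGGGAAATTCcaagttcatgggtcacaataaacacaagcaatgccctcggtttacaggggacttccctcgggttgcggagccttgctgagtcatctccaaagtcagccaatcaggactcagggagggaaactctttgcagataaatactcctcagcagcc
Il6, chr5:30012864-30013113, plus strand: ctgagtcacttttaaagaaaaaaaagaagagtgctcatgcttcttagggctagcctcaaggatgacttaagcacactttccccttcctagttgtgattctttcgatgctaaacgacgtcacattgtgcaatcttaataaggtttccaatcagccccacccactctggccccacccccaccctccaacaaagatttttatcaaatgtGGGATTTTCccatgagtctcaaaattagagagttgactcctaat
Csf1, chr3:107760470-107760719, minus strand: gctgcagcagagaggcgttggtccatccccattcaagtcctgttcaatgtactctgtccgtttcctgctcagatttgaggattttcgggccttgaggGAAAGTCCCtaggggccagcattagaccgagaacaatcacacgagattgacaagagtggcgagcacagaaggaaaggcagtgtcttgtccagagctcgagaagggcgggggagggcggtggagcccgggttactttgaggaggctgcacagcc
The match began 71 bases before the start in Cxcl1, 44 in Il6, 159 in Cxcl10 and 153 in Csf1. In Csf1 it lay on the opposite strand, and in Cxcl1 matches on both strands overlapped, shifted by 2 bases. The interferon response letters were found in Cxcl10 alone, 213 bases before its start, and in 8.56% of all promoters. The AP-1 letters occurred in Cxcl10 and Il6 and in 7.81% of all promoters, and they overlapped none of the NF-κB matches. In TM4 cells, Cxcl10, Il6 and Csf1 were lower in shNC replicate 3 than in the other two controls and Cxcl1 was not, so the same letters stood in promoters of genes with different layouts. A match of letters is a description and does not show binding.

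Chemokine mRNAs are also known to be short-lived through AU-rich elements in the 3′ UTR. The 9 letters TTATTTATT occurred in the 3′ UTR of 2 of the 10 genes, 2 times in Cxcl1 and 1 time in Cx3cl1, and in 7.38% of 11649 tested genes with a GENCODE 3′ UTR. The first site of each gene is shown with the 9 letters in capitals.
Cxcl1, chr5:90892615-90892643, plus strand: atttatgtatTTATTTATTccacaaagtg
Cx3cl1, chr8:94780850-94780878, plus strand: cagtgaacaaTTATTTATTggattcccag
The shorter ATTTA occurred 7 times in the 592-base 3′ UTR of Cxcl1, 6 times in that of Il6, 5 times in that of Cxcl5 and not in that of Ccl5.

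The rest of the pathway was read from 7 lists of genes. The lists were chosen with earlier results of these data known. None of the listed genes passed in either line in the unblocked fit. In C18-4 cells 15 passed with the replicate number as a block, beside 11.9% of all genes, and these were picked to be named after their values were seen. Tested there were 14 other ligands, 2 receptors, 21 NF-κB pathway genes, 10 further targets, 11 IL-6 signalling, 9 mRNA decay and 4 shedding genes. Among 10 further NF-κB target genes, all tested in C18-4 cells, 9 had lower means in shM5, with a median log2 difference of -0.29 against -0.00 over all genes. Without shNC replicate 3, 5 were lower and 5 higher, with a median of -0.12. Without any other single library 8 or 9 were lower, with medians from -0.50 to -0.21. With the block 4 passed, all lower. These were Saa3 (log2 difference -2.49, adjusted p = 0.00295), C3 (-1.15, adjusted p = 0.00206), Lcn2 (-1.14, adjusted p = 0.00146) and Ptx3 (-0.64, adjusted p = 0.00107), which are proteins of the acute phase and innate defence. Without the block their adjusted p were 0.141, 0.158, 0.534 and 0.0771. Saa3 was at 2.13, 1.55 and 3.15 RPKM in shNC and at 0.15, 0.16 and 0.94 RPKM in shM5, and Ptx3 at 67.0, 61.6 and 80.8 and at 43.0, 42.4 and 48.7 RPKM. In both genes every shM5 library was below every control.

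Of the NF-κB subunits, kinases and feedback inhibitors, 21 of 22 were tested in C18-4 cells, with 15 lower and 6 higher. With the block 2 passed, Nfkbia (-0.36, adjusted p = 0.00743), the inhibitor that is itself an NF-κB target, and Bcl3 (-0.35, adjusted p = 0.0397). The subunit genes Rela and Nfkb2 had log2 differences of 0.06 and -0.15 and did not pass. In the IL-6 signalling list of 11, 3 passed with the block, all lower, namely Cebpb (-0.45, adjusted p = 0.00329), Cebpd (-0.58, adjusted p = 0.00368) and the kinase gene Jak2 (-0.27, adjusted p = 0.0329). Stat3, the main factor of that pathway, had a log2 difference of -0.08 and did not pass.

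Of 42 other chemokine and cytokine ligands, 37 had a row and 14 were tested in C18-4 cells, of which 2 passed with the block, Cxcl14 (-0.93, adjusted p = 0.0155) and Ccl20 (0.83, adjusted p = 0.0108). Ccl20, the ligand of Ccr6, rose in C18-4 shM5 from 0.81, 0.91 and 2.13 RPKM to 1.54, 1.56 and 4.17 RPKM, with replicate 3 highest in each group. The ligand with the highest mean level, Mif, did not pass, at 651 ± 45.8 RPKM in C18-4 shNC and 595 ± 41.3 RPKM in C18-4 shM5. Of the 9 genes of mRNA decay 2 passed with the block, Zfp36l1 (0.29, adjusted p = 0.0467) and Zfp36l2 (-0.22, adjusted p = 0.0458). Of the 4 tested genes of ligand shedding 2 passed, Rhbdf2 (0.38, adjusted p = 0.0193) and Adam10 (-0.42, adjusted p = 0.00762), the protease that releases Cx3cl1 from the membrane.

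Receptors for the 10 ligands were scarce in both lines. Of 14 with a row, those with a level high enough for a test numbered 2 in C18-4 and 3 in TM4, and Ccr2, Cxcr2, Cx3cr1, Csf1r and Cxcr4 did not pass 0.22 RPKM in any library. Il6st, the signalling chain for IL-6, averaged 21.0 ± 5.50 RPKM in C18-4 shNC and 27.1 ± 1.62 RPKM in TM4 shNC. Il6ra, the binding chain, averaged 1.09 ± 0.456 and 6.57 ± 0.574 RPKM in the same groups. Ackr3, the scavenging receptor of Cxcl12, averaged 20.4 ± 4.02 RPKM in TM4 shNC and 21.8 ± 0.770 RPKM in TM4 shM5 and did not pass 0.06 RPKM in any C18-4 library, so that the gene and the ligand gene Cxcl12 were both near 0 in the same line.

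In TM4 cells 0 listed genes passed, and without shNC replicate 3 the counts were 13 of 17 other ligands (3 higher, 10 lower), 17 of 22 NF-κB pathway genes (6 higher, 11 lower), 4 of 9 other targets (1 higher, 3 lower), 9 of 11 genes of IL-6 signalling (6 higher, 3 lower), 7 of 9 genes of mRNA decay (5 higher, 2 lower), 3 of 4 genes of shedding (all higher) and 2 of 4 receptors (1 higher, 1 lower), beside 67.4% of all genes. Ccl20 was at 26.4, 26.6 and 1.35 RPKM in TM4 shNC and at 0.27, 0.36 and 0.87 RPKM in TM4 shM5. The feedback inhibitor Tnfaip3 was at 19.7, 19.7 and 5.83 RPKM in TM4 shNC and at 5.30, 5.34 and 6.44 RPKM in TM4 shM5. In these 2 genes, which were chosen after their values were seen, shNC replicate 3 was close to or within the shM5 values, the layout of Ccl2 and Ccl7. Ptx3, at 25.7, 27.9 and 13.3 RPKM in TM4 shNC and 13.1, 12.7 and 11.7 RPKM in TM4 shM5, was the 1 gene of the 10 further targets whose shM5 values were all lower in both lines. Nfkbia went in opposite directions, lower in every C18-4 shM5 library and higher in every TM4 shM5 library than in the controls of the line.

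**Figure D5:**
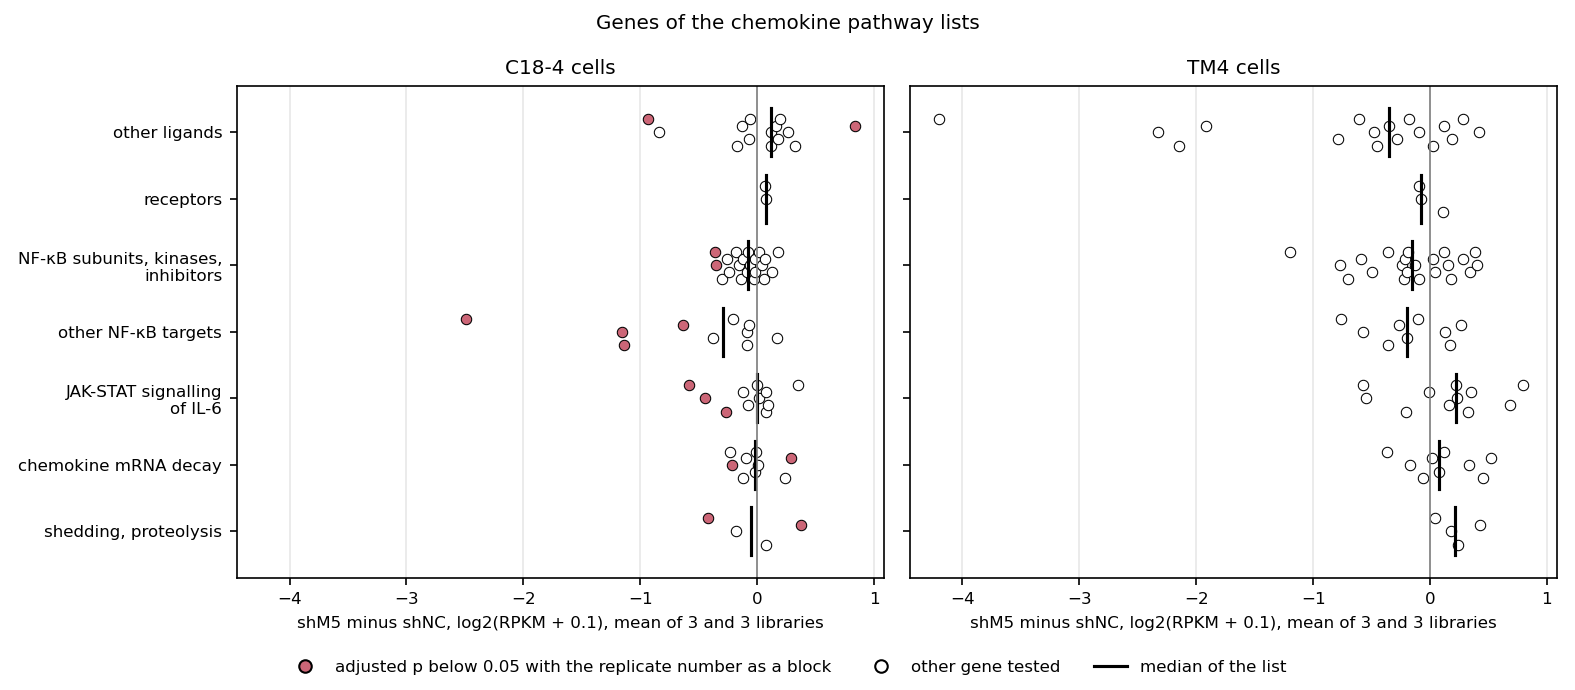
Difference between shM5 and shNC on the log2(RPKM + 0.1) scale for each tested gene of the 7 pathway lists in C18-4 (left) and TM4 cells (right), with a bar at the median of the list and filled points for an adjusted p below 0.05 with the replicate number as a block. In C18-4 cells Saa3 is the leftmost point at -2.49 and 15 points are filled, and in TM4 cells 0 are.

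The genes whose layout over the libraries was most like that of Ccl7 and Cxcl1 were looked up among the genes tested in both lines, by Pearson r of the log2 level minus the mean of its line over 12 libraries. For Ccl7 they were Ets2 (r = 0.973), Ptx3 (0.972), Tcf4 (0.965), Prodh (0.963) and Gtf2a2 (0.962). For Cxcl1 they were Zc3h14 (0.956), Gtpbp6 (0.939), Rnf19b (0.928), Zfp11 (0.925) and Ubxn2a (0.915). Ets2, a transcription factor gene, averaged 27.6 RPKM in C18-4 shNC and 19.1 RPKM in C18-4 shM5, and 86.3 and 46.8 RPKM in TM4 cells. Within the set, Ccl2 and Cxcl10 had an r of 0.955 and Ccl2 and Ccl7 one of 0.908 over the 12 libraries, while Csf1 and Cx3cl1 had one of -0.935. All these values share the same 12 libraries and the split among the TM4 controls, and the highest of 10459 values of r is high in part because it was picked.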

How the data were processed

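Poly(A) RNA of 12 libraries was sequenced. The authors aligned the reads with SOAPaligner and deposited 1 table of RPKM values per gene, given to 2 decimals. The genome build, annotation and depth per library are not given in the sources used here, and no interval for counting error could be set. RPKM values were tested as log2(RPKM + 0.1) with limma (version 3.58.1, R 4.3.3, trended variance) in place of the read-based test of the study, after dropping genes that averaged under 0.5 RPKM over the libraries compared, with Benjamini-Hochberg adjustment over all genes tested and a threshold of 0.05. The fold change of low genes is understated on this scale. Steps were tested on simulated data.

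The 10 genes, the pathway lists and the marker lists were chosen with earlier results of these data known. From the lists, genes called in a within-line comparison were to be named, up to 5 per list, and otherwise up to 4 with the highest mean level; further genes are marked in the text.

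The replicate numbers come from the labels. In C18-4 cells the deviations of same-numbered libraries from their group means had a Pearson r of 0.439, 0.409 and 0.631 across genes, so the numbers were taken to pair those libraries. Libraries numbered 1 and 2 crossed gave 0.341 and 0.345, so the pairing rests mainly on replicate 3 against the other two. Alternatives were 0.01 or 1 added, other filters, median-ratio scaling, the replicate block, leaving out each library or both replicates 3, and the stricter threshold of the study. That threshold was an adjusted p of at most 0.001 with an absolute log2 ratio of at least 1. It was applied here to the limma fits, so its counts are not those of the read-based test of the study.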

Additional observations from a re-analysis of the deposited data

Results flagged for a closer look

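A set of 5 genes of the pathway lists had every shM5 library on one side of the controls in C18-4 cells and on the other side in TM4 cells. None of the 10 chemokine and cytokine genes did. Over all tested genes, shM5 values were all lower in 9.55% and all higher in 9.30% in C18-4 cells. In TM4 cells these shares were 11.1% and 15.7%. The share of all genes with opposite sides in the lines was not counted, so nothing is read from the number 5. The differences between the lines were tested as an interaction in limma, and none passed the adjusted p threshold of 0.05. Nfkbia had a log2 difference of -0.36 in C18-4 and 0.40 in TM4 cells (interaction adjusted p = 0.142). Jak2 was at -0.27 and 0.23 (adjusted p = 0.178), and Cebpd at -0.58 and 0.22 (adjusted p = 0.129). Adam10 was at -0.42 and 0.18 (adjusted p = 0.0740). Zfp36l1 went the other way, at 0.29 and -0.17 (adjusted p = 0.138).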

How the results depend on the processing

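For C18-4 cells the count of 68 genes called became 0 when the threshold of the study was applied to the limma fit. It became 4 with no filter beyond a mean above 0, 1386 with the replicate block and 3029 without replicate 3 of both groups. When single libraries were left out, it ran from 0 to 237. For TM4 cells the count of 0 became 8016 without replicate 3 of both groups and ran from 0 to 7433 over single libraries left out, 7433 being without shNC replicate 3. Among the 8016 were all 10 chemokine and cytokine genes. With no library left out 11016 genes were tested in TM4 cells, so most genes passed in this fit. Nothing is read from the 10. In TM4 cells same-numbered libraries deviated together with an r of 0.0729, 0.0489 and 0.127, and the replicate block left the count at 0. The block, with replicate numbers matched across the lines, gave 8432 genes in place of 8596 for the line difference. The 8596 genes became 3101 at the threshold of the study. The 12 genes that differed between the lines in the shM5 effect became 0 at the threshold of the study, 27 with 1 added, 21 with no filter, 5 after rescaling, 1 with the block and 7022 without replicate 3 of both groups, and ran from 0 to 4477 over single libraries left out, with 4477 without TM4 shNC replicate 3 and 31 without C18-4 shNC replicate 3. Among the 7022 were all of the chemokine and cytokine genes but Il6. With no library left out 11773 genes were tested between the lines, so most genes passed here too. That membership is not read as a result.

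Of 103 values of the 8 genes tested in C18-4 cells under the alternatives, 102 stayed within 1 SD of the replicates, the exception being Cxcl5 with 1 added, and Csf1 changed sign without shNC replicate 3, to 0.07. Of 130 values of the 10 genes in TM4 cells, all stayed within 1 SD, which is wide there because of shNC replicate 3, and 5 changed sign, those of Ccl5 and Cxcl5 without single libraries. The causes were not tested. Leaving out 1 of 3 libraries cannot move a value beyond this SD, and the block and the filters leave the differences unchanged. The counts within 1 SD therefore do not measure how stable the values are. With 3 libraries a group and no depth given, small differences in low genes such as Il6, Cxcl5 and Cxcl12 in C18-4 cells cannot be resolved.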
